A study of Saccharomyces cerevisiae with 6 samples.

Results

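SIM1, UTH1, NCA3 and SUN4 are the 4 members of the SUN family of budding yeast, and each was measured by 1 probe set among the 5498 that the array gives to a single Saccharomyces cerevisiae gene (5449 genes in all). The members were taken by gene symbol. A gene was to be read from its probe set with the highest mean over the 6 arrays, a choice that did not arise here because each member has only 1. The family was taken up with its differences between strains already known, so these differences and their p values are given as a description, and nothing is supported with them.

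Proteins of the SUN family pass through the secretory pathway and are found in the cell wall, and some are shed into the medium. They share a carboxy-terminal domain, rich in conserved cysteines, that is related to glucan-cleaving enzymes. SUN4, also named SCW3, acts in the late steps by which the septum between mother and daughter cell is opened, and in Candida albicans relatives of SUN4 and SIM1 are needed for normal cell separation. UTH1 has been tied to the wall, to oxidative stress and to mitochondria. NCA3 was named for its part, with NCA2, in the expression of ATP synthase subunits encoded in mitochondria. SIM1 has the least defined role. The Ssd1 protein binds the mRNA of several wall genes, members of this family included.

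RNA came from 3 independent cultures of the parental strain P5, a commercial wine yeast, and 3 of P5-EM. P5-EM is an isolate of P5 taken at the end of a serial batch evolution at 12 °C of a mixed culture of wine strains that had first been mutagenized with EMS (ethyl methanesulfonate). Both strains grew at 12 °C in SM1, a synthetic grape must poor in inositol, and cells were collected in mid-exponential growth. P5-EM is a single evolved isolate and 1 moment was sampled, so the strain and its stage of fermentation cannot be told apart. Each sample was hybridised to an Affymetrix Yeast Genome 2.0 array, and levels are given as normalized signals on the log2 scale.

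The array also carries 1747 probe sets for Schizosaccharomyces pombe, a yeast not present in these cultures, and their 95th percentile, between 2.28 and 2.60 over the 6 arrays, served as background. P5-EM replicate 1 stood apart from the other P5-EM arrays: its Pearson r across probe sets was 0.9673 with replicate 2 and 0.9532 with replicate 3, against 0.9903 between replicates 2 and 3. The values of the 4 members and the counts of the gene lists are therefore also given without it, and those of other named genes where its omission changed their call. The 3 cultures per strain limit the precision of every value.

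All 4 members gave signals above background on all 6 arrays (the smallest distance was 5.33, for SUN4). On the P5 arrays SUN4 (7.70, 7.91 and 7.65) lay below the median of the S. cerevisiae probe sets (7.96, 7.95 and 7.92). On the P5-EM arrays it lay above that median, as the other members did on all arrays. SUN4 was higher and NCA3 lower in the evolved strain, while UTH1 and SIM1 did not pass the test. In limma, the linear model with moderated variances that was fitted to all probe sets, 2 of the 4 members passed the threshold (an adjusted p of at most 0.05), against 13.9% of all probe sets, and both also differed at least 2-fold, against 3.93% (1.33% higher and 2.60% lower). The arrays of the strains did not overlap for 3 members (SUN4, NCA3 and, barely, UTH1), against 45.7% of all probe sets. Nothing is read from these counts. The highest S. cerevisiae signal of each array lay between 12.92 and 13.07, above every member.

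**Figure D1:**
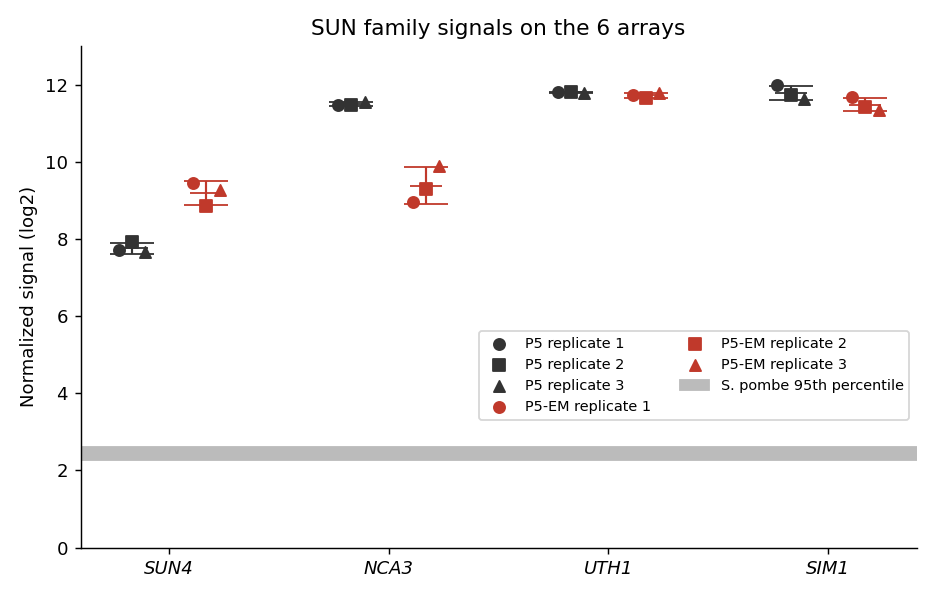
Normalized signal (log2) of SUN4, NCA3, UTH1 and SIM1 on the 3 arrays of P5 (dark) and the 3 of P5-EM (red), with the mean and SD of each strain as bars and the range of the S. pombe 95th percentile over the arrays as a grey band. SUN4 lies higher and NCA3 lower on all 3 P5-EM arrays, and UTH1 and SIM1 stay within 0.30 of their P5 means on average.

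SUN4, on chromosome XIV, had a signal of 7.70, 7.91 and 7.65 in P5 and of 9.44, 8.85 and 9.28 in P5-EM (log2, replicates 1 to 3). All P5-EM arrays lay above all P5 arrays, as they did for 21.1% of all probe sets. The mean went from 7.75 ± 0.14 to 9.19 ± 0.30 (SD, n = 3 per strain), a difference of 1.44 on the log2 scale (SE 0.18, 95% interval 1.01 to 1.86, limma adjusted p = 0.0106), or 2.71-fold. On the linear scale the P5 arrays averaged 216 and the P5-EM arrays 593. The difference was the 30th highest among the 5498 probe sets.

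A culture in growth holds cells at all stages of the division cycle, and more cells at the stage that expresses a gene cannot be told apart from more RNA per cell. Without P5-EM replicate 1 the SUN4 difference was 1.31 (adjusted p = 0.0016). It did not pass without P5 replicate 2 (1.51, adjusted p = 0.0655) or P5 replicate 3 (1.38, 0.0716). Without either of these arrays no probe set of the whole array passed limma, the lowest adjusted p being 0.0574 and 0.0689, while 1318 and 1222 had an unadjusted p under 0.05. This loss therefore applies to every call described here.

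NCA3, on chromosome X, had a signal of 11.46, 11.48 and 11.56 in P5 and of 8.95, 9.29 and 9.90 in P5-EM. The P5 arrays were close together, whereas the P5-EM arrays spread over almost 1 unit, and the strains did not overlap. Every P5-EM array was below every P5 array for 24.6% of all probe sets. The mean fell from 11.50 ± 0.05 to 9.38 ± 0.48 (SD, n = 3), a difference of -2.12 (SE 0.24, 95% interval -2.68 to -1.56, adjusted p = 0.00961), or 4.35-fold. Only 7 probe sets had a lower difference. In P5-EM, NCA3 was lowest on replicate 1 and highest on replicate 3. Without replicate 1 the difference was -1.91 (adjusted p = 7.77e-04), and the call ended without P5 replicate 2 (-2.13, 0.0655) or 3 (-2.09, 0.0716). The NCA3 signal in P5-EM was still at least 6.35 above background on each array.

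UTH1, on chromosome XI, had a signal of 11.81, 11.81 and 11.78 in P5 and of 11.73, 11.66 and 11.78 in P5-EM. These 6 values lay closer together than those of any other member, and the highest P5-EM array and the lowest P5 array were equal at 2 decimals. The mean was 11.80 ± 0.02 in P5 and 11.72 ± 0.06 in P5-EM (SD, n = 3). UTH1 did not pass (difference -0.08, SE 0.10, adjusted p = 0.597), and the 95% interval of its difference ran from -0.32 to 0.16. Without P5-EM replicate 1 the difference was also -0.08 (adjusted p = 0.584).

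SIM1, on chromosome IX, had a signal of 11.99, 11.73 and 11.62 in P5 and of 11.68, 11.42 and 11.34 in P5-EM. The strains overlapped, since P5-EM replicate 1 lay above P5 replicate 3. The mean was 11.78 ± 0.19 in P5 and 11.48 ± 0.18 in P5-EM (SD, n = 3), and the difference of -0.30 did not pass (SE 0.15, 95% interval -0.66 to 0.07, adjusted p = 0.212). Without P5-EM replicate 1 it was -0.40 (adjusted p = 0.0638).

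Set against the P5 mean of each gene, SUN4 stood at 1.69, 1.10 and 1.52 on P5-EM replicates 1, 2 and 3, each time above the 95th percentile of all probe sets on that array (1.03, 0.77 and 0.67). NCA3 stood at -2.55, -2.21 and -1.60, each time below the 5th percentile (-1.63, -0.85 and -0.71). Both were farthest from P5 on P5-EM replicate 1, the array on which the whole set of probe sets also spread the most. UTH1 stood at -0.07, -0.14 and -0.02 and SIM1 at -0.10, -0.36 and -0.44, all inside those limits. For SIM1, unlike NCA3 and SUN4, replicate 1 was the P5-EM array closest to P5.

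**Figure D2:**
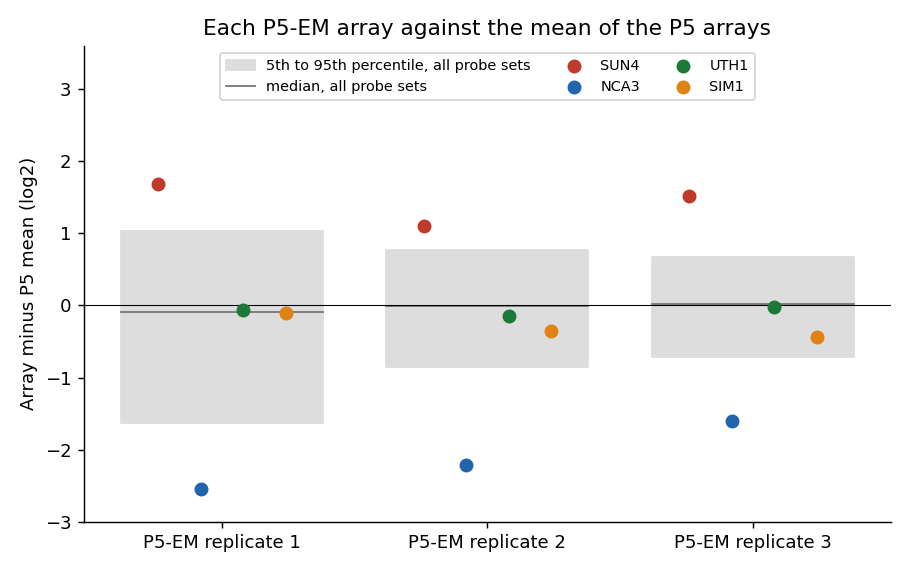
Difference (log2) between each P5-EM array and the mean of the P5 arrays for the 4 SUN family genes, with the range from the 5th to the 95th percentile of all 5498 probe sets as a grey box and their median as a grey line. SUN4 lies above the box and NCA3 below it on all 3 arrays, and UTH1 and SIM1 lie inside it.

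The signals of different probe sets do not rank their mRNAs, because probes differ in how strongly they hybridise. Within an array, however, the difference between a pair of members can be followed from strain to strain, since the response of the probes is the same in both. There are 6 such pairs. SUN4 minus NCA3 was -3.76, -3.57 and -3.91 on the P5 arrays and 0.49, -0.44 and -0.62 on the P5-EM arrays. The SUN4 signal was thus far below that of NCA3 in P5 and close to it in P5-EM, and the mean of this difference moved by 3.56 (from -3.74 ± 0.17 to -0.19 ± 0.60, SD, n = 3), an 11.8-fold change of the ratio.

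SUN4 also gained on UTH1 and SIM1. SUN4 minus UTH1 moved by 1.52, from -4.05 ± 0.13 in P5 to -2.53 ± 0.26 in P5-EM (SD, n = 3), and SUN4 minus SIM1 by 1.73, from -4.03 ± 0.24 to -2.29 ± 0.26. NCA3 lost ground against both: UTH1 minus NCA3 went from 0.30 ± 0.07 to 2.34 ± 0.45 and SIM1 minus NCA3 from 0.28 ± 0.24 to 2.10 ± 0.65. In P5 the signals of UTH1, SIM1 and NCA3 therefore lay within about 0.30 of each other on average, and in P5-EM NCA3 lay apart from both. These 5 pairs did not overlap between strains. Each of them holds SUN4 or NCA3, whose own arrays did not overlap, as was so for 45.7% of all probe sets. Nothing is therefore read from this count. UTH1 minus SIM1 did overlap, at -0.18, 0.08 and 0.16 in P5 and 0.04, 0.23 and 0.44 in P5-EM.

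**Figure D3:**
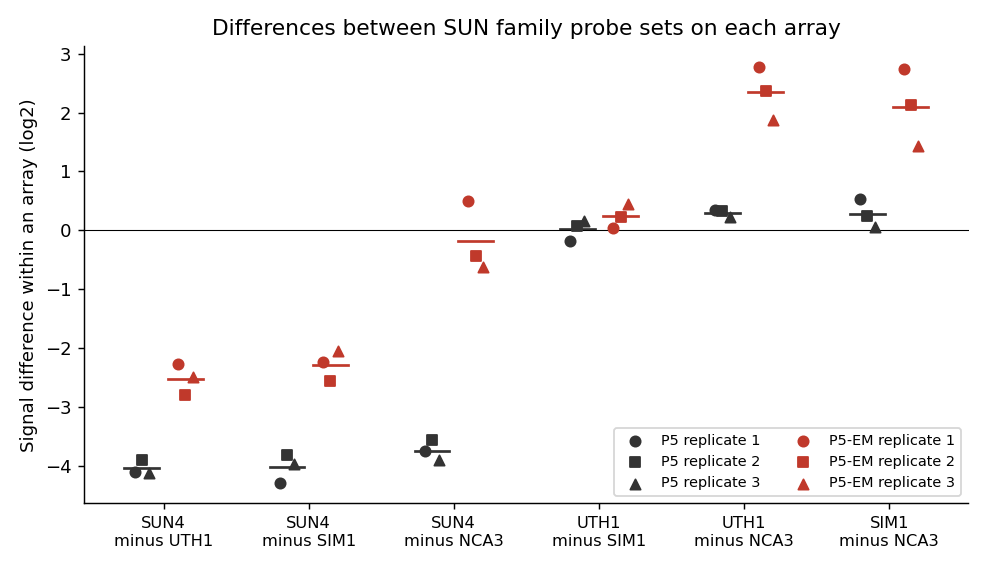
Signal difference (log2) between each pair of SUN family probe sets on the same array, for the 3 arrays of P5 (dark) and of P5-EM (red), with lines at the means. The largest shift is that of SUN4 minus NCA3, by 3.56. Only UTH1 minus SIM1, the pair without SUN4 or NCA3, overlaps between strains.

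The genes whose profiles over the 6 arrays came closest to each member were looked up among 5397 other genes. Each profile was taken as the difference from that gene's P5 mean, and likeness was measured as the root mean square difference over the 6 arrays. Such profiles share the strain difference and the outlying array, so the values are a description. The closest to SUN4 were PRY3 (0.14, Pearson r = 0.98), SCW11 (0.15, r = 0.98) and CIR2 (0.17, r = 1.00). PRY3 encodes a wall-anchored protein, SCW11 a glucanase-like protein of cell separation and CIR2 a putative mitochondrial oxidoreductase. SCW11 and PRY3 are among the genes that yeast expresses in the newborn daughter cell. PRY3 went from 8.80 ± 0.17 in P5 to 10.22 ± 0.43 in P5-EM and SCW11 from 7.24 ± 0.20 to 8.66 ± 0.34 (SD, n = 3, limma adjusted p = 0.0163 and 0.013). PRY3 did not pass without P5 replicate 1 (1.42, adjusted p = 0.0685).

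The closest to NCA3 were HMX1, for heme oxygenase (0.17, r = 0.99), SPS100, a gene of the spore wall (0.32, r = 0.98), and HPA2, for an acetyltransferase (0.34, r = 0.96). All 3 were lower in P5-EM, by -2.19, -2.37 and -1.94 (limma adjusted p = 0.0128, 0.0191 and 0.0177). Their calls ended without P5 replicate 1 (0.0577, 0.0674 and 0.0668) or P5-EM replicate 2 (0.0566, 0.0637 and 0.0641). The closest member to NCA3 was SIM1, at 1.35, far beyond these 3. HPA2 was dim, with a smallest distance above background of 1.04.

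SIM1 was closest to URA4 of pyrimidine synthesis (0.04, r = 0.99), NPL4 of ubiquitin-dependent degradation (0.05, r = 0.97) and RET2, a coat subunit of retrograde transport (0.07, r = 0.95). UTH1 was closest to YAR010C (0.02, r = 0.92), an open reading frame of a repeated Ty1 element whose probes may read several near-identical copies, RFA3 of the DNA-binding replication protein A (0.03, r = 0.85) and YNL190W, a cell wall protein (0.04, r = 0.77). None of these 6 passed the test, with limma adjusted p from 0.178 to 0.589. Without P5-EM replicate 1, URA4 (-0.41, adjusted p = 0.043) and NPL4 (-0.45, 0.0335) passed as lower.

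Of 18 measured genes of cell separation, which are expressed as mitosis ends, 11 passed as higher in the evolved strain and 7 did not pass. Of the 11, 8 were higher at least 2-fold. Over all probe sets 6.09% were called higher, and 1.33% were called higher at 2-fold. The median difference of the list was 0.95, against -0.04 over all probe sets. EGT2, a wall gene of cell separation, rose by 2.16 (5.81 ± 0.26 in P5 and 7.98 ± 0.36 in P5-EM, SD, n = 3, adjusted p = 0.00808). DSE4, a glucanase of the daughter side of the septum, rose by 1.73, DSE2, another daughter-specific wall protein, by 1.38 and DSE1, a daughter-specific protein, by 0.99 (adjusted p from 0.00961 to 0.00969). PCL9, a cyclin of the Pho85 kinase, rose by 1.03 (0.0108).

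The list's count was 7 without P5 replicate 1, 0 without P5 replicate 2 or 3 (where no probe set passed at all) and 16, again all higher, without P5-EM replicate 1. Over all probe sets 763 passed with all arrays and 140 without P5 replicate 1. Without P5-EM replicate 2 it was 99, and without P5-EM replicate 1 it was 1462. The counts of every list with an array left out stand against these numbers. On the P5-EM arrays EGT2 lay at 8.35, 7.62 and 7.95 and DSE4 at 9.44, 8.78 and 8.83, so replicate 1 was the highest for both, as for SUN4. SIC1, an inhibitor of the Cdc28 kinase, and PCL2, another Pho85 cyclin, overlapped between strains (0.11 and -0.01, adjusted p = 0.829 and 0.986). Without P5-EM replicate 1, SIC1 passed as higher (0.50, adjusted p = 0.0128).

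Of 8 measured genes of the RAM kinase network and its partners, 1 passed and 7 did not (median difference -0.12). CBK1, the kinase of the network, was lower by -0.71 (9.12 ± 0.16 in P5 and 8.41 ± 0.15 in P5-EM, SD, n = 3, adjusted p = 0.0256), against 7.78% of all probe sets called lower. SSD1, for the protein that binds wall mRNAs, had 11.28 ± 0.12 and 11.12 ± 0.09 and did not pass (-0.16, adjusted p = 0.368). TAO3, another gene of the network, carries a heterozygous nonsynonymous change in P5-EM according to the paper. TAO3 had 9.85 ± 0.06 in P5 and 10.14 ± 0.10 in P5-EM and did not pass (0.29, adjusted p = 0.115). SWI5 had 4.86, 4.59 and 4.46 in P5 and 3.62, 5.28 and 5.56 in P5-EM, with replicate 1 below all P5 arrays and the other P5-EM arrays above them (0.19, adjusted p = 0.808). It passed as higher without P5-EM replicate 1 (0.79, adjusted p = 0.00937). SWI5 was dim, and on P5-EM replicate 1 it lay only 1.02 above background. CBK1 did not pass without P5 replicate 1 (-0.62, 0.0869) or P5-EM replicate 2 (-0.72, 0.0803). The list's count was 0 without P5 replicate 1, 2 or 3 or P5-EM replicate 2, and 3 without P5-EM replicate 1.

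Of 18 measured enzymes that make, cut or crosslink wall glucan, 1 was higher, 5 were lower and 12 did not pass, against 6.09% of all probe sets called higher and 7.78% lower, and the median difference was 0.00. GSC2, a subunit of glucan synthase, was lower by -0.87 (12.05 ± 0.04 in P5 and 11.17 ± 0.05 in P5-EM, SD, n = 3, adjusted p = 0.00969). CRH1, a crosslinking enzyme between chitin and glucan, was lower by -1.11 (0.00986), while the related UTR2 was higher by 1.09 (0.0111). KRE6 of beta-1,6-glucan synthesis was lower by -0.68 (0.0198) and GAS2, a glucan-elongating enzyme of spore wall formation, by -0.77 (0.025).

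The remaining call, named after its value was seen, was SCW10, a glucanase-like wall protein, at -1.29 (adjusted p = 0.0444). SCW10 had 10.72, 9.73 and 9.45 on the P5-EM arrays and thus came closest to P5 on replicate 1, unlike NCA3. BGL2, SCW4 and EXG1, for enzymes of the wall, did not pass (-0.06, 0.07 and -0.11, adjusted p = 0.676, 0.672 and 0.483). The list's count was 2 without P5 replicate 1, 0 without P5 replicate 2 or 3, 7 without P5-EM replicate 1 and 2 without P5-EM replicate 2, where GSC2 and CRH1 kept their calls. SCW10 also did not pass the methods' t-test (adjusted p = 0.0597) or without P5-EM replicate 3 (-1.03, 0.0604).

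**Figure D4:**
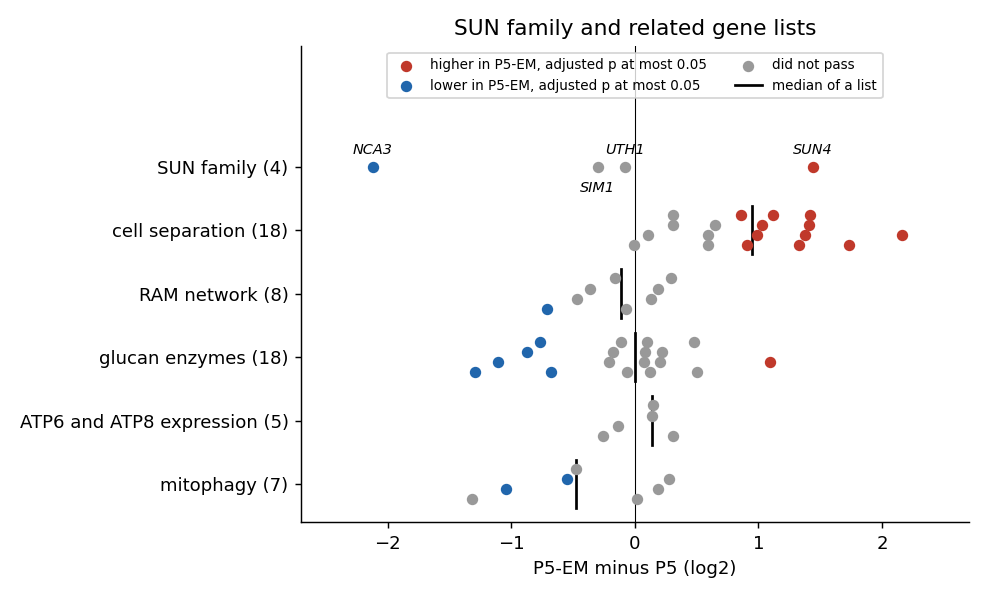
Difference between P5-EM and P5 (log2) for the 4 SUN family genes, each named, and for every measured gene of 5 related lists, with the number measured beside each list. Red and blue points passed limma as higher or lower in P5-EM, grey points did not, and a black line marks the median of a list, 0.95 for cell separation.

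The mitochondrial links of NCA3 and UTH1 were followed in 2 further lists. None of 5 measured nuclear genes for the expression or assembly of mitochondrial Atp6 and Atp8 passed limma, against 13.9% of all probe sets. Of the 5, 0 had an unadjusted p under 0.05, and nothing is read from these counts. NCA2, the partner of NCA3, had 6.46, 6.65 and 6.44 in P5 and 6.53, 6.52 and 6.94 in P5-EM. Its strains overlapped (difference 0.15, SE 0.15, adjusted p = 0.507). The list's median was 0.14, and 1 gene passed without P5-EM replicate 1. NAM1 was not analysed here, and neither were ATP6 and ATP8 themselves.

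Of 7 genes of mitophagy, the removal of mitochondria by autophagy, 2 were lower and 5 did not pass (median -0.48), against 7.78% of all probe sets called lower. ATG11, a scaffold protein of selective autophagy, was lower by -1.04 (7.32 ± 0.02 in P5 and 6.29 ± 0.25 in P5-EM, SD, n = 3, adjusted p = 0.0131), and ATG32, the receptor on mitochondria, by -0.55 (9.13 ± 0.08 and 8.58 ± 0.18, 0.04). Neither passed without P5 replicate 1 (0.0565 and 0.0964) or P5-EM replicate 2 (0.0566 and 0.119). The list's count was 0 without P5 replicate 1, 2 or 3 or P5-EM replicate 2, and 4 without P5-EM replicate 1.

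The 4 genes lie on 4 different chromosomes, and the protein-coding genes on either side of each were chosen by position alone. Of these 8 neighbours 2 were higher, 2 lower and 4 did not pass, against 6.09% of all probe sets called higher and 7.78% lower. SUN4 lies between RPL9B (1.58, adjusted p = 0.072), for a ribosomal protein, and AQR1 (-0.10, 0.737), a drug and acid transporter, neither of which passed. RPL9B has a near-identical copy, RPL9A, whose mRNA its probes may also read, and RPL9B had 8.11, 6.84 and 6.10 on the P5-EM arrays against 5.72, 5.41 and 5.17 in P5. It passed without P5-EM replicate 1 (1.03, adjusted p = 0.0167) or replicate 3 (2.04, 0.023).

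NCA3 lies next to ASF1, a histone chaperone gene transcribed away from it on the other strand, and ASF1 was also lower, by -0.98 (8.34 ± 0.23 in P5 and 7.36 ± 0.39 in P5-EM, SD, n = 3, adjusted p = 0.0378). On the other side of NCA3, PHO86 of phosphate transporter export did not pass (-0.31, 0.103). SIM1, which did not pass, has AYR1 of lipid metabolism on one side, which was higher by 0.99 (0.00986), and POG1, a gene tied to recovery from pheromone arrest, on the other, which was lower by -1.52 (0.0212). UTH1 has YKR041W, higher by 0.75 (0.0458), and SHB17, a sedoheptulose bisphosphatase, at 0.06 (0.706). The calls of ASF1, POG1 and YKR041W ended without P5 replicate 1 (0.0843, 0.0741 and 0.115) or P5-EM replicate 2 (0.0803, 0.0707 and 0.0784), and that of YKR041W also without P5-EM replicate 3 (0.0642).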

How the data were processed

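The deposited table holds log2 values, normalized by the authors, of 10928 probe sets in 3 cultures each of P5 and P5-EM. Image data were read with GCOS, and the authors applied RMA, run in Partek, which corrects background, normalizes arrays against each other and condenses the probes of a set into 1 estimate. No replicates were pooled. Normalizing arrays against each other takes most genes as unchanged. All columns were used.

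Probe sets were named by the array annotation, with 12 symbols updated through the RefSeq table of assembly R64, which also gave chromosomes and neighbouring genes. The probe sets of a single S. cerevisiae gene (5498) were tested with limma 3.58.1 in R 4.3.3 (lmFit and eBayes), without covariates, and p values were adjusted over all of them by the Benjamini-Hochberg method. Differences are P5-EM minus P5. The fit was tested on simulated data. The members, the 5 gene lists and the tests were chosen with earlier results of these data known. Named genes are the 4 members, NCA2, up to 5 called genes per list with the lowest adjusted p, the 3 closest profiles per member, chromosomal neighbours and a few list members picked after their values were seen (SSD1, SWI5, SIC1, PCL2, SCW10, BGL2, SCW4 and EXG1). TAO3 was named for its mutation in P5-EM. Probe sets at or under background on all arrays were left out of the profile search. A further gene of interest is not reported here. Alternatives were other tests, normalizations and filters, a replicate block and each array left out.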

Additional observations from a re-analysis of the deposited data

How the results depend on the processing

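SUN4 and NCA3 kept their direction under every alternative run, and their calls under all but the omission of P5 replicate 2 or 3. Over the omission of each array in turn the SUN4 difference ran from 1.31 to 1.60, that of NCA3 from -2.38 to -1.91, that of UTH1 from -0.11 to -0.05 and that of SIM1 from -0.40 to -0.19. With array weights SIM1 passed as lower (-0.30, adjusted p = 0.00919) and SUN4 was at 1.10. That fit gave 15.3029 to P5-EM replicate 2 and 0.1030 to replicate 1 as weights, and its estimation did not converge. The shift of SUN4 minus NCA3 ran from 3.22 to 3.77 over the arrays left out and was 3.56 after quantile normalization. With background set at the 99th percentile of S. pombe signals, all 4 members still lay above it. None of them has another probe set, so that alternative was not run, and the methods' t-test, which takes in only differences of at least 2-fold, gave no value for UTH1 and SIM1.

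Over all probe sets 763 passed at any fold and 216 at 2-fold. Leaving out arrays in turn gave 0 to 1462 and 0 to 419 (limma), array weights 3222 at any fold, and the replicate block 208. The number of calls ran from 0 to 16 in the cell separation list (11 in the full data), 0 to 3 in the RAM network (1), 0 to 7 among glucan enzymes (6), 0 to 1 in the ATP6 and ATP8 list (0) and 0 to 4 in mitophagy (2) over the same omissions. Array weights gave 5 calls in the RAM network, 1 in the ATP6 and ATP8 list and 5 in mitophagy. The replicate block gave 0, 3 and 1 in the RAM network, glucan enzymes and mitophagy, and quantile normalization 2 in the RAM network. The cause was not tested. Same-numbered samples of the strains did not deviate together (r = -0.032, -0.279 and -0.016). This gave no sign of pairing by replicate number, though 3 arrays per strain cannot exclude it. SUN4 and NCA3 passed limma with the replicate block as well (adjusted p = 0.0449 and 0.0398).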
